A study of Mus musculus with 16 samples.

Results

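The 33 genes described here encode enzymes and carriers of mitochondrial and peroxisomal fatty acid β-oxidation and targets of the nuclear receptor PPARA, measured by 3′ RNA sequencing in mouse kidney. They were selected by gene symbol from a list of the pathway that leaves out the Cyp4 fatty acid hydroxylases. The rule itself uses no measured value, but the members and the other gene lists were chosen with earlier results of these data known. All 33 were found among the 40879 gene symbols listed, and all 33 were among the 14665 genes with enough counts to be tested. Pdk4 would not have been among them without its counts in the libraries of mice given YM.

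The kidneys came from male wild-type C57BL/6 mice in 4 groups. Young mice (5 libraries) were 3 months old and untreated, and they were obtained separately from the aged mice. Old mice (5 libraries) were the naturally aged, untreated animals, whose age at sampling the labels do not give. Old + YM and Old + PM mice (3 libraries each) received 100 mg/kg/day orally, on 5 days of each week, between the ages of 19 and 24 months. All aged mice had first been acclimatized for 5 months. YM and PM are the abbreviations of the labels, and the series title names the herbal preparations Yukmijihwang-tang and Palmijihwang-tang. Since the dose of the PM group is once written as YM in the labels, the agent was taken from the group name. Whether each library came from a different mouse is not stated, so the p-values measure the spread between these libraries, which may be technical in part.

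Fatty acids are the main fuel of the proximal tubule, the segment that reabsorbs most of the filtrate. A fatty acid is first activated to an acyl-CoA and carried into the mitochondrion as a carnitine ester, where rounds of dehydrogenation, hydration, a second dehydrogenation and thiolysis release acetyl-CoA, while peroxisomes shorten very long and branched chains by a parallel route. PPARA, with the coactivator PGC-1α, switches on many genes of these steps when fatty acids are plentiful, as in fasting.

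The 16 libraries held 8223008 to 10914515 counts in genes, and levels are given as CPM, counts relative to the scaled library total, where 1 CPM was about 8.22 counts in the smallest library. The labelled tissue was present in every library, with the proximal tubule phosphate transporter Slc34a1 at 3271 to 5300 CPM. Several library-wide features moved with the groups. A clock score was taken from circadian genes (the mean standardized level of 8 genes such as Dbp and Per2 minus that of 4 genes such as Bmal1). It lay between -2.84 and -1.30 in Young and between 1.57 and 2.29 in Old except Old 4 (-1.68), and Old + YM 3 (-0.52) and Old + PM 3 (-0.05) stood below the other libraries of their groups. The slope of expression on the GC content of the transcript 3′ end was most negative in Young 5 (-0.12 log2 per 10% GC) and most positive in Old + PM 3 (0.13). Nnt, which differs between C57BL/6 substrains, was at 111 ± 11.8 CPM (SD, n = 5) in Young and 46.5 ± 3.92 CPM (SD, n = 5) in Old, so age and mouse source cannot be told apart. Macrophage markers summed to 157 to 199 CPM in Young and 170 to 1017 CPM in Old, with the highest value in Old 5. Young and Old did not overlap in the sums of B and plasma cell markers (7.0 to 18.5 against 121 to 194 CPM), tubule injury markers (487 to 546 against 602 to 889 CPM) and male-biased tubule genes (38083 to 44575 against 13212 to 25639 CPM, 9 of 10 lower). The sums of T and NK cell markers did not overlap either (4.6 to 7.3 against 11.6 to 171 CPM). Podocyte markers (173 to 194 against 205 to 241 CPM) and hepatocyte markers (1120 to 1281 against 380 to 734 CPM) were also apart. Most of the hepatocyte sum came from Cyp2e1 and Ttr, and of the 9 hepatocyte markers 6 had positive log2 fold changes in Old against Young and 3 negative ones. The mitochondrial genome gave 15.0% to 18.1% of the counts in Old + PM and 18.5% to 22.02% in Old, without overlap, and its highest share was in Young 5 (27.7%). The part of these features in the results was not tested, except where a fit with the score or slope is given.

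In Old against Young kidneys, 5 of the 33 genes passed (edgeR quasi-likelihood test, Benjamini-Hochberg adjusted p under 0.05 over all genes tested), which is 15.2% of them beside 13.6% of all genes tested (6.47% higher and 7.13% lower). Ppara and Cpt1a rose by 1.35-fold and 1.37-fold, and Acads, Ehhadh and Acadm were lower by 1.65-fold, 1.62-fold and 1.56-fold. The members did not move as a block, since 17 had a positive and 16 a negative log2 fold change, with a median of 0.008 beside 0.022 over all genes. At an unadjusted p under 0.05 there were 15 members (45.5%) beside 28.1% of all genes, and 9 members beside 24.1% without Young 4. Young and Old values did not overlap for 3 members, Acads, Ehhadh and Pex11a, all lower in Old, which is 9.09% beside 9.19% of all genes (4.97% lower). Lower transcript levels in whole kidney can mean fewer cells of a type or less RNA per cell, and these cannot be told apart. The 20 proximal tubule markers, 6 lower and 2 higher, summed to 17138 to 19724 CPM in Young and 12779 to 17679 CPM in Old.

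**Figure D1:**
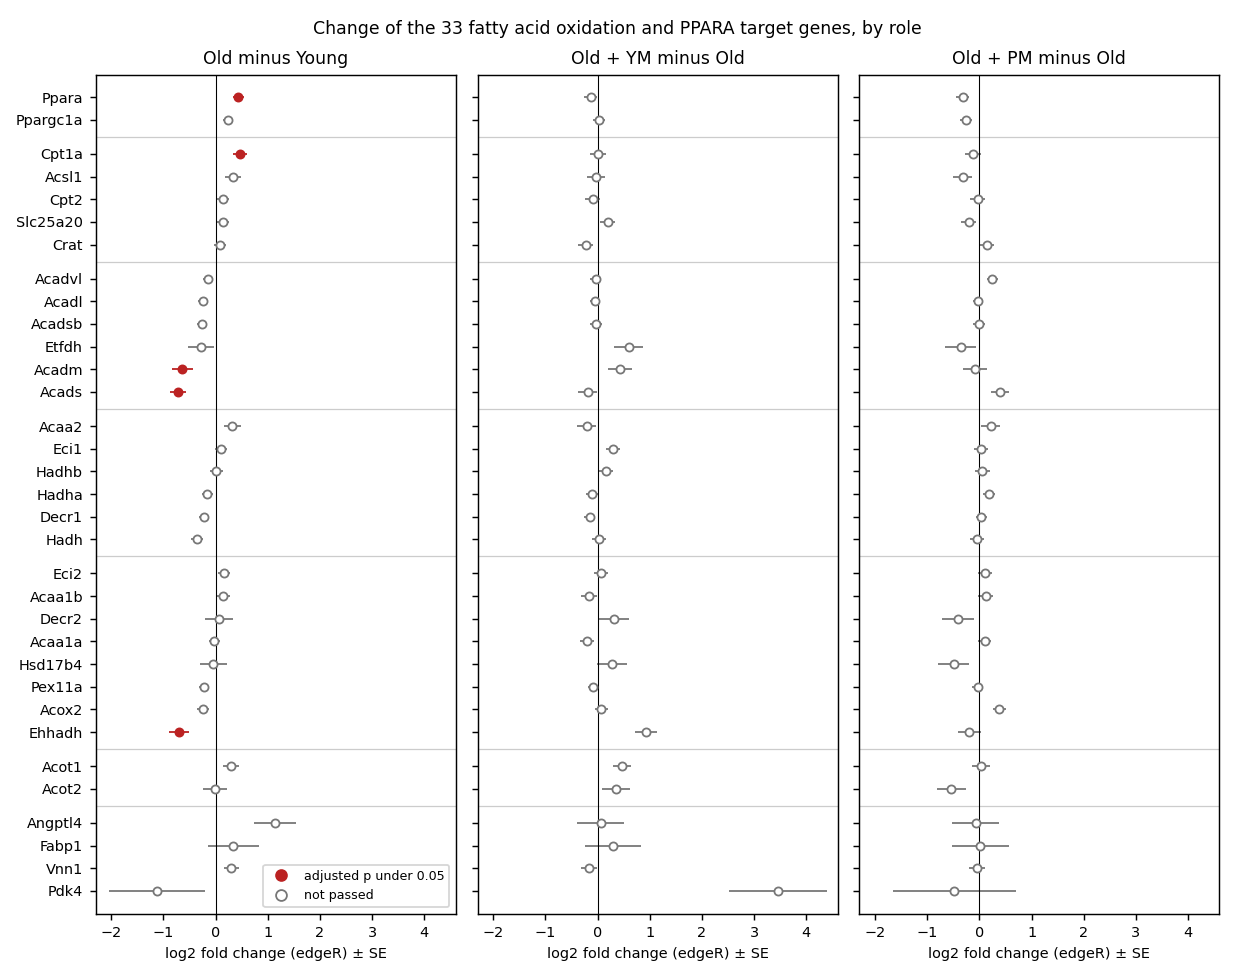
Log2 fold change (points) and its standard error (bars) of the 33 genes in 3 comparisons, from the edgeR fit of all 16 libraries, in blocks by role from regulators (top) to other PPARA targets (bottom). The 5 filled points are the members that passed in Old against Young (Ppara and Cpt1a higher, Acadm, Acads and Ehhadh lower), and no member passed in the other comparisons.

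Among the regulators, Ppara, the fatty acid-sensing receptor itself (chromosome 15, 85734983 to 85802819, plus strand, GRCm38), was at 144, 154, 160, 143 and 159 CPM in Young 1 to 5. It was at 197, 246, 213, 147 and 224 CPM in Old 1 to 5. All Old libraries except Old 4 stood above every Young library, while Old 4 lay inside the Young range. The log2 fold change was 0.43 (SE 0.11, edgeR adjusted p = 0.0127), and 0.54 without Old 4. Ppargc1a, which encodes PGC-1α, had 81.2, 87.8, 81.7, 90.8 and 103 CPM in Young and 108, 103, 118, 86.5 and 108 CPM in Old. Here too Old 4 was the lowest Old library, and the groups overlapped. Its log2 fold change of 0.24 (SE 0.10, edgeR adjusted p = 0.115) did not pass with all libraries, and without Old 4 it was 0.31 with an edgeR adjusted p of 0.0320. Ppargc1a also passed without Young 5. Of all genes 18.2% passed without Old 4 and 14.1% without Young 5, beside 13.6% with all libraries.

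All 5 genes of activation and carnitine transport had positive log2 fold changes (median 0.14), and 1 of them passed. This was Cpt1a, the outer-membrane carnitine acyltransferase that sets the rate of entry into mitochondria (chromosome 19, 3322334 to 3385733, plus strand). Young libraries 1 to 5 had 201, 182, 179, 180 and 240 CPM, and Old libraries 1 to 5 had 305, 317, 307, 179 and 241 CPM. Old 1, 2 and 3 were well above Young, Old 5 was level with the highest Young library, and Old 4 was level with the lowest. The log2 fold change was 0.46 (SE 0.14, edgeR adjusted p = 0.0293), and it did not pass without any of Young 1 to 4 or Old 1 to 3 (adjusted p from 0.0598 to 0.0872) and in a fit of these groups alone (0.0614). Acsl1, an acyl-CoA synthetase, had a log2 value of 0.33, and Cpt2, the carnitine carrier gene Slc25a20 and the carnitine acetyltransferase gene Crat lay between 0.08 and 0.14, none of them passing.

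The genes of the first dehydrogenation step went the other way, with all 6 negative (median -0.27) and 2 passing. Acads, the short-chain acyl-CoA dehydrogenase (chromosome 5, 115110299 to 115119346, minus strand), had 487, 485, 378, 464 and 343 CPM in Young 1 to 5 and 279, 308, 217, 321 and 183 CPM in Old 1 to 5. Every Old library was below every Young library, although Young 5 and Old 4 were close. Acads fell by 0.72 on the log2 scale (SE 0.15, edgeR adjusted p = 0.00450), the smallest adjusted p among the 33 genes, and it passed without any 1 of the 16 libraries.

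Acadm, the medium-chain acyl-CoA dehydrogenase (chromosome 3, 153922357 to 153944632, minus strand), had 474, 527, 551, 494 and 811 CPM in Young and 439, 325, 475, 257 and 340 CPM in Old. Young 5 stood far above the rest, and Old 3 just reached the lowest Young value. Acadm fell by 0.64 (SE 0.20, edgeR adjusted p = 0.0453), but it no longer passed in 12 of the 16 fits that leave out a library, with Young 5 left out among them (log2 -0.45, edgeR adjusted p = 0.119). The long-chain gene Acadl (-0.25), the branched-chain gene Acadsb (-0.26), the very-long-chain gene Acadvl (-0.16) and Etfdh (-0.28), which passes the electrons on to ubiquinone, had negative log2 values that did not pass.

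None of the 6 genes of the later mitochondrial steps passed, 3 positive and 3 negative. Hadha, the α subunit of the trifunctional protein that handles long chains, had 222, 217, 198, 194 and 172 CPM in Young and 169, 199, 154, 216 and 161 CPM in Old, and the groups overlapped widely (log2 -0.16, edgeR adjusted p = 0.348). Hadh, the short-chain hydroxyacyl-CoA dehydrogenase, came nearest to the threshold, at 804 ± 108 CPM in Young and 626 ± 108 CPM in Old (SD, n = 5 each), a log2 value of -0.36 with an edgeR adjusted p of 0.0517. Decr1 was at -0.22, Hadhb at 0.01, Eci1 at 0.11 and the thiolase Acaa2 at 0.32.

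In peroxisomes 1 of 8 genes passed. Ehhadh, the bifunctional enzyme that also serves dicarboxylic acids (chromosome 16, 21761287 to 21787807, minus strand), had 18.9, 19.6, 15.0, 18.6 and 28.4 CPM in Young and 13.6, 12.9, 10.8, 13.9 and 10.4 CPM in Old. The groups did not overlap, and Young 5 was the highest of all 10 libraries. Ehhadh fell by 0.70 (SE 0.19, edgeR adjusted p = 0.0173), and without Young 5 the value was -0.52 with an edgeR adjusted p of 0.0566. Pex11a, a peroxisome division factor and a textbook PPARA target, was at 176 ± 4.95 CPM in Young and 151 ± 18.9 CPM in Old (SD, n = 5 each), without overlap but without passing (log2 -0.22, edgeR adjusted p = 0.113). The branched-chain oxidase Acox2 was at -0.24, and Hsd17b4, Decr2, Eci2, Acaa1a and Acaa1b lay between -0.04 and 0.16. Counts of Acaa1a and Acaa1b are uncertain, because 31.7% of the 50-base windows in the last 300 bases of Acaa1a transcripts also occur in Acaa1b. Counts of Acadvl, Acaa1a, Acaa1b, Crat, Etfdh, Hadha, Eci2 and Acsl1 may hold reads of a gene on the other strand, with which their exons overlap, since no source used here states whether the counting used strand.

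The 2 acyl-CoA thioesterase genes and the 4 other PPARA targets had no gene that passed. Angptl4, a secreted lipoprotein lipase inhibitor, had 14.9, 17.4, 8.39, 15.6 and 28.8 CPM in Young and 46.6, 39.1, 19.7, 12.5 and 67.4 CPM in Old. Its Old values spread from below most Young libraries (Old 4) to the highest of all 16 libraries (Old 5). The log2 value of 1.13 (SE 0.40) had an edgeR adjusted p of 0.0806, and without Old 4 it was 1.35 with an edgeR adjusted p of 0.0156. Angptl4 also passed without Young 5. Vnn1, a pantetheinase, was at 0.30, and the thioesterase genes Acot1 and Acot2 at 0.29 and -0.02. Fabp1, the liver-type fatty acid-binding protein, was low in all libraries (0.754 to 4.55 CPM), as was Pdk4.

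PPARA binds a direct repeat of AGGTCA with a spacer of 1 base, and E-box and D-box elements link many metabolic genes to the clock, so the RefSeq promoters (GRCm38.p6) of the members were searched on both strands over the 250 bases before the start. Of the 33 genes 27 were matched in that table. That repeat (AGGTCA, any base, AGGTCA), with up to 2 of its 12 fixed letters changed, was found in 1 of the 27 (3.70%), beside 3.72% of 27025 genes. The E-box CACGTG was found in none of the 27, beside 6.86% of genes, and the D-box TTATGTAA in none, beside 0.977%. The 1 match was in Fabp1 on the minus strand, 54 to 67 bases before the RefSeq start, with 1 letter changed. GENCODE starts the gene at 71199827, inside the window shown. The match is in capitals as read on the plus strand (chr6:71199804-71199832).
Fabp1: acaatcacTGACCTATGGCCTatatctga
Fabp1 did not pass in any comparison. The absence of a match says only that these letters are not in these windows.

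**Figure D2:**
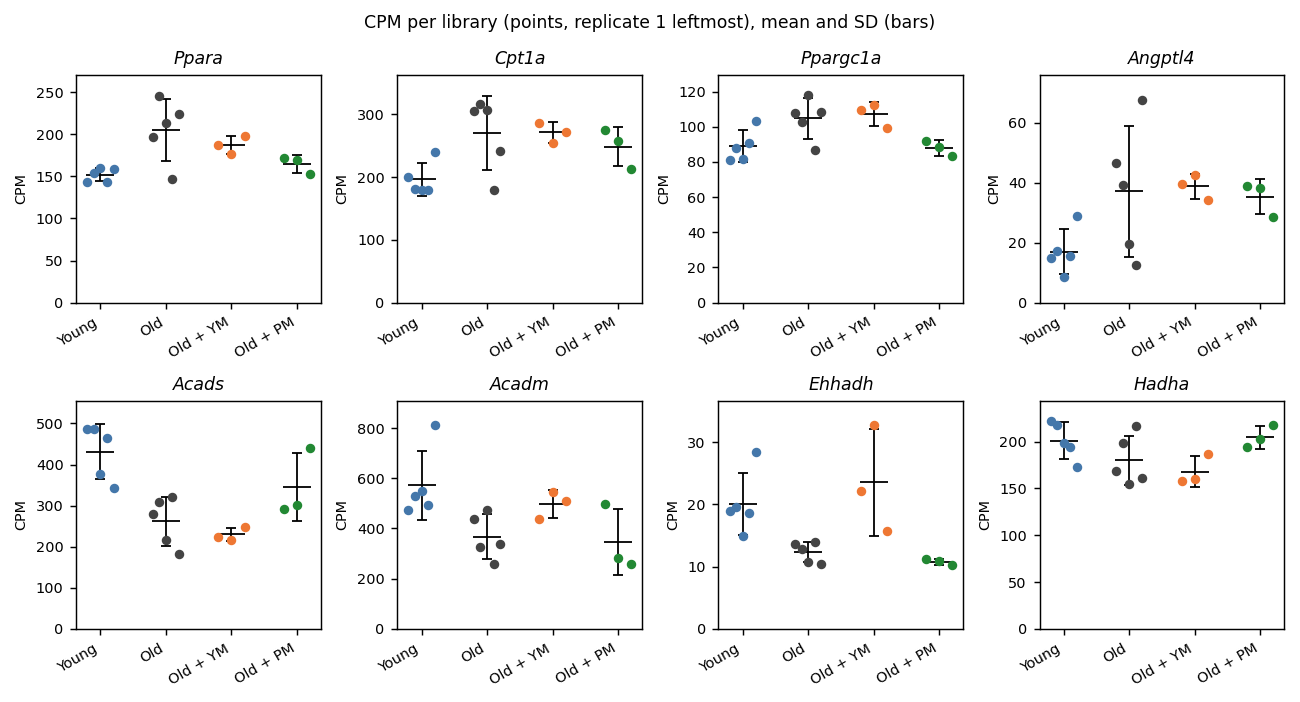
CPM (vertical axis) of 8 members in each library (points, replicate 1 leftmost in its group), with the group mean and SD (bars). Old 4, the fourth Old point, lies in the Young range for Ppara, Cpt1a, Ppargc1a and Angptl4, and for Acads and Ehhadh no Old point reaches a Young point.

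Old 4 was the only Old library with a negative clock score. It also had the most positive GC slope in Old, at 0.09 log2 per 10% GC (-0.09 to 0.02 in the others). It was the only Old library inside the Young range for Ppara, and the lowest Old library for Cpt1a. For Acads and Ehhadh it was the highest Old library, below every Young library. With the clock score as a covariate 2.26% of all genes passed in Old against Young, beside 13.6% without it. None of the 5 calls was kept in that fit (edgeR adjusted p from 0.0618 to 0.885). The log2 values were then 0.06 for Ppara (SE 0.16) and -0.11 for Cpt1a (SE 0.17), against -0.34 for Acads (SE 0.23), -0.94 for Ehhadh (SE 0.29) and -1.18 for Acadm (SE 0.31). In that fit 2 other members passed, Hadh lower (log2 -0.74) and Acaa2 higher. The score separates Young from Old except for Old 4, so these values rest largely on that library, and clock phase and age cannot be told apart beyond it. Within Old 4 the clock score and the GC slope cannot be told apart either.

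**Figure D3:**
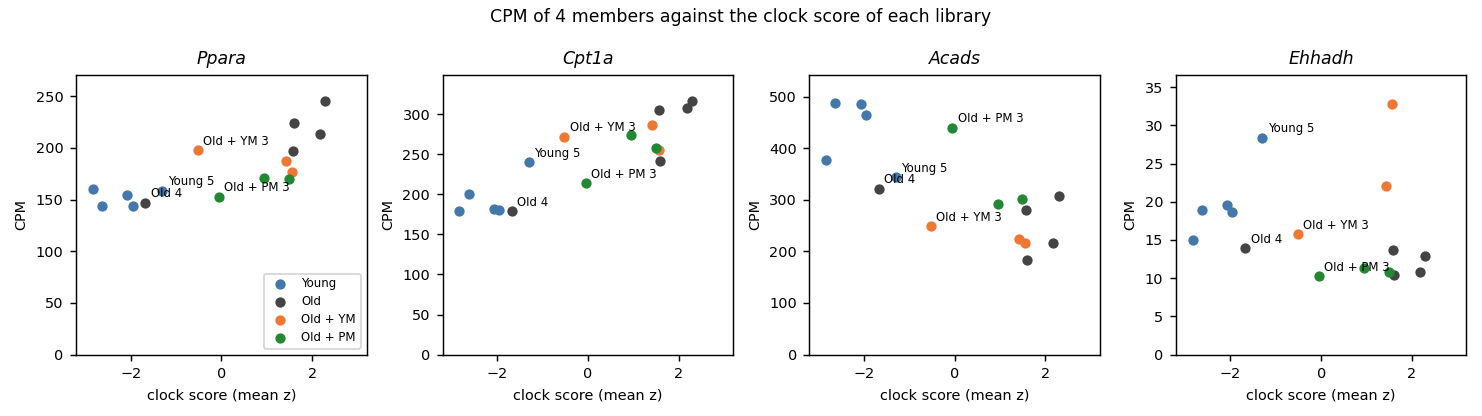
CPM of Ppara, Cpt1a, Acads and Ehhadh (vertical axes) against the clock score of the library (horizontal axis, mean standardized units), coloured by group. Old 4 sits beside the Young libraries for Ppara and Cpt1a, and lies below all of them for Acads and Ehhadh.

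Within the groups, members rose and fell together in particular libraries. Of the 33 genes 15 were highest of their group in Young 5 and lowest in both Old 4 and Old + PM 3, among them Cpt1a, Cpt2, Acadm, Hadh, Etfdh, Hsd17b4 and Acot2, and 12.1% of all genes tested showed this order. The opposite order was seen in 4 members, Acads, Acadsb, Hadha and Acaa2, and in 11.0% of all genes. The median GC content of the 3′ end was 39.3% in the 15 (35.2% to 54.8%) and 46.8% in the 4 (41.7% to 62.3%), with overlapping ranges. Over all genes tested with these orders the medians were 41.3% and 48.3%. With the GC slope as a covariate, a fit chosen after seeing the data, 11 members passed in Old against Young (3 higher and 8 lower), beside 18.8% of all genes in the same fit. They were the 5 above and Acaa2, Acadl, Acadsb, Etfdh, Hadh and Pex11a.

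**Figure D4:**
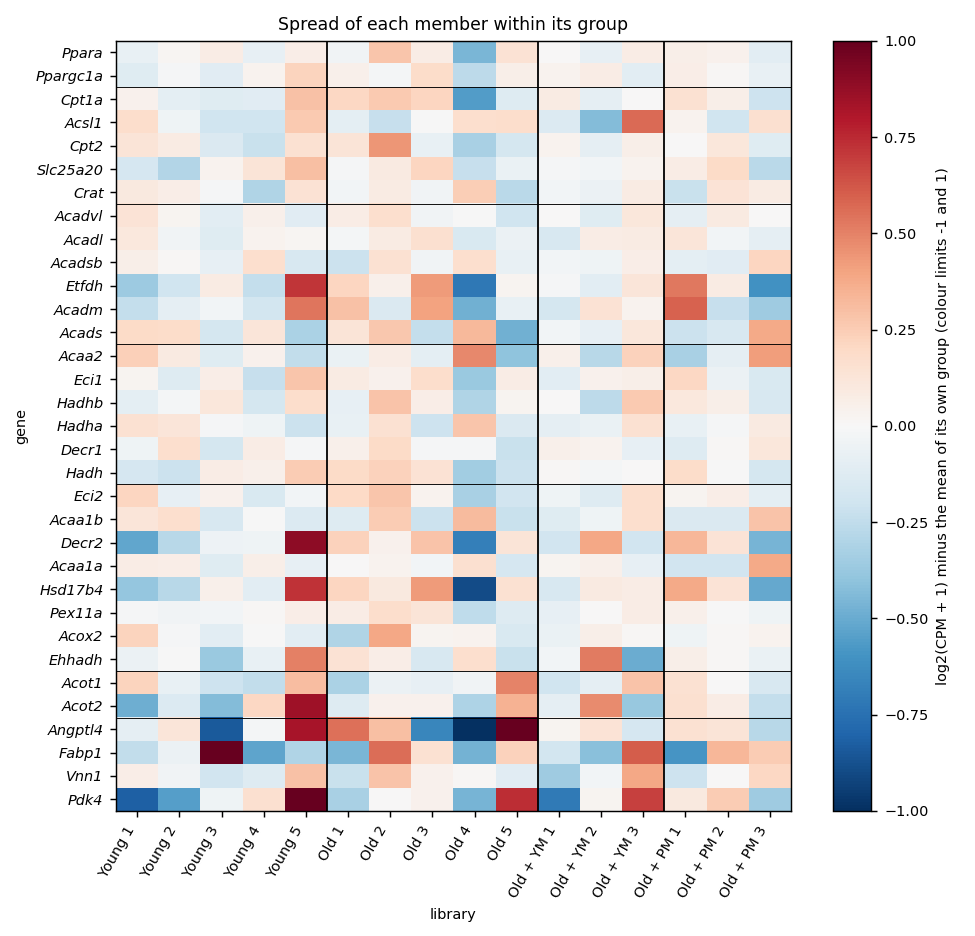
Each cell is a member's log2(CPM + 1) in a library minus the mean of its own group (colour, limits -1 and 1), with libraries in columns and genes by role in rows. Young 5 is red and Old 4 and Old + PM 3 are blue for many genes, and Acads, Acadsb, Hadha and Acaa2 run opposite to Acadm, Etfdh and Hsd17b4.

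Of 104 other genes of the pathway and its regulation 98 were tested, and 4 rose and 22 fell in Old (26.5%, beside 13.6% of all genes), with a median log2 value of -0.15. Among the rising genes were Creb3l3, a transcription factor active in liver on fasting, the thioesterase Acot3 and the monoglyceride lipase Mgll. Creb3l3 was low, with 0 to 0.607 CPM in Young and 3.38, 3.92, 3.33, 0.876 and 3.79 CPM in Old (log2 3.49, SE 0.62, edgeR adjusted p = 0.00118), and Old 4 was the lowest Old library but still above every Young library. The largest falls were in Ppard, the PPARδ receptor (log2 -1.95), the fatty acid transporter Cd36 (-1.23), lipoprotein lipase Lpl (-1.07), the peroxisomal carnitine acyltransferase Crot (-1.04), the ketone body enzyme Bdh1 (-0.96) and the CoA hydrolase Nudt19 (-0.95). Fgf21, a liver hormone induced by PPARA, had no count in any library. Of the 51 tested genes of the β-oxidation list, which holds enzymes and transporters that are not members, 17 fell and 2 rose, and of the 47 of the PPARA network list 5 fell and 2 rose.

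In Old + YM against Old kidneys none of the 33 genes passed, beside 3 of all genes tested (0.0205%). At an unadjusted p under 0.05 there were 4 members, Ehhadh, Pdk4, Acot1 and Eci1, all with positive log2 values, which is 12.1% beside 9.47% of all genes. The groups did not overlap for 4 members (Ehhadh, Pdk4, Eci1 and Etfdh, all higher with YM), beside 9.12% of all genes (5.16% higher). Pdk4 entered the test only through its counts in Old + YM, so its place in these counts gives no support for a rise with YM. Ehhadh had 22.1, 32.8 and 15.7 CPM in Old + YM 1 to 3, against at most 13.9 CPM in Old. Its level in these libraries was as high as in Young (log2 0.93 against Old, SE 0.21, edgeR adjusted p = 0.174). The same gene passed with DESeq2's Wald test (adjusted p = 0.0280) and without Young 5 (edgeR adjusted p = 0.0382), and in none of the other fits tried.

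Pdk4, the kinase that shuts off pyruvate entry into the citric acid cycle when fatty acids are burned (chromosome 6, 5483351 to 5496309, minus strand), rested on few reads. It had 23, 38 and 77 counts in Old + YM 1 to 3 (2.38, 4.62 and 7.86 CPM), against 1, 4, 4, 0 and 13 counts in Old 1 to 5 and 0, 2, 7, 9 and 24 counts in Young 1 to 5. Old + YM stood above every Old library, but Young 5 reached into its range. The log2 value was 3.46 (SE 0.94, edgeR adjusted p = 0.282). Acot1 was at 64.5, 69.5 and 90.7 CPM with YM and at 42.6 to 75.3 CPM in Old (log2 0.47, edgeR adjusted p = 0.396). Ppara was at 188, 177 and 198 CPM and Cpt1a at 287, 255 and 272 CPM with YM, both inside the Old range.

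None of the 9 adipocyte markers tested passed, and all 9 had positive log2 values. The 10 markers of the list summed to 99.3, 174 and 118 CPM in Old + YM 1 to 3 and to 40.1 to 71.3 CPM in Old, with Fabp4, which endothelial cells also express, at 84.9 to 116 CPM of it. The more specific marker Adipoq was at 0.517 to 4.74 CPM with YM and 0 to 1.56 CPM in Old. Young 5, the Young library with the most Pdk4 and Ehhadh, had the highest adipocyte sum in Young (165 CPM). In Old the sum was highest in Old 5 (71.3 CPM), which had the most Pdk4 but the least Ehhadh. It was lowest in Old 4 (40.1 CPM), which had the most Ehhadh and a Pdk4 count of 0. In Old + YM the sum and Ehhadh were highest in replicate 2, and Pdk4 in replicate 3. The GC slope was negative in all Old + YM libraries, and also in Old 1, Old 3 and Old 5 (-0.02, -0.09 and -0.04 log2 per 10% GC). The part of the adipocyte markers and the GC slope in the result was not tested, apart from a fit with the GC slope as a covariate. That fit gave log2 values of 0.80 for Ehhadh and 2.84 for Pdk4.

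**Figure D5:**
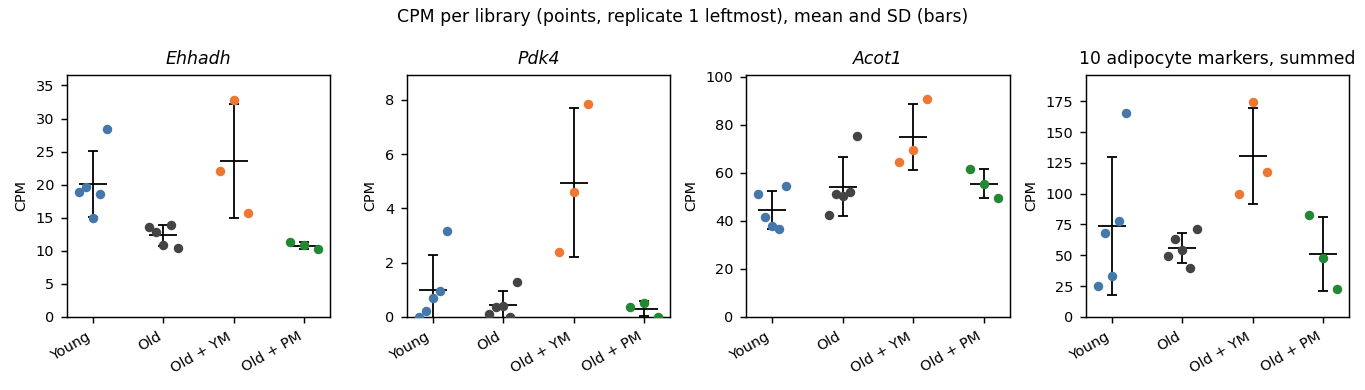
CPM of Ehhadh, Pdk4 and Acot1 and the summed CPM of 10 adipocyte markers in each library (points, replicate 1 leftmost), with the group mean and SD (bars). For Ehhadh, Pdk4 and the marker sum all 3 Old + YM points lie above all Old points.

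In Old + PM against Old kidneys none of the 33 genes passed, as none of all genes did (0% of 14665). At an unadjusted p under 0.05 there were 5 members (15.2%, beside 6.16% of all genes), Acox2 (log2 0.38), Acads (0.40) and Acadvl (0.24) above 0 and Ppara (-0.32) and Ppargc1a (-0.25) below 0, each with an edgeR adjusted p of 0.790. The number of such members was 1 without Old + PM 3 (beside 5.01% of all genes), 2 without Old 5 (5.45%) and 8 without Old 4 (10.2%). It was 3 without Old 2 (6.88%), Old 3 (4.56%) or Old + PM 2 (4.39%), and 3 with the GC slope as a covariate (8.03%). DESeq2's Wald test passed none of the 33 either. Ppara had 171, 170 and 153 CPM in Old + PM 1 to 3, in or just above the Young range and below every Old library but Old 4. Ppargc1a had 92.0, 88.7 and 83.2 CPM, also close to Young. Acads had 291, 302 and 439 CPM, and only Old + PM 3 lay above the Old range. Only Acot2 was without overlap (lower with PM), beside 4.02% of all genes (2.1% lower). Cpt1a (275, 258 and 214 CPM), Acadm (498, 281 and 259 CPM) and Hadha (194, 202 and 218 CPM) overlapped with Old.

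The YM and PM comparisons share the Old libraries, so their values are not independent. Ehhadh had a log2 value of 0.93 with YM and -0.19 with PM, Pdk4 3.46 and -0.48, Acads -0.19 and 0.40, Ppara -0.13 and -0.32, and Acadm 0.44 and -0.09. Set directly against each other, Old + PM and Old + YM differed in no member at the threshold, as in none of all genes (edgeR, 0%). There were 13 members at an unadjusted p under 0.05 (39.4%, beside 12.8% of all genes). This number was 1 with the GC slope as a covariate (beside 3.83% of all genes), 4 without Old + PM 3 (5.90%) and 7 without Old + PM 2 (9.91%) or Old + YM 2 (7.81%). In all, 17 members did not overlap, 10 lower and 7 higher with PM (51.5%, beside 23.8% of all genes, 11.9% in each direction). Ehhadh, at 11.3, 10.9 and 10.2 CPM with PM, had the smallest p of the members (log2 -1.12, SE 0.24, edgeR adjusted p = 0.226). It passed with DESeq2's Wald test (adjusted p = 0.0190, beside 0.409% of all genes) and in edgeR with no filter (beside 0.0325%). Pdk4, tested only through its counts with YM, had 4, 6 and 0 counts with PM (log2 -3.95, SE 1.17, edgeR adjusted p = 0.258). Members lower with PM included Etfdh (-0.96), Acot2 (-0.90) and Hsd17b4 (-0.77), and members higher with PM included Acads (0.58) and Crat (0.38). The GC slope was positive in all Old + PM and negative in all Old + YM libraries, and with it as a covariate the log2 values were -0.86 for Ehhadh, -1.85 for Pdk4 and 0.10 for Hsd17b4. The mitochondrial share was 15.0% to 18.1% in Old + PM and 17.8% to 24.6% in Old + YM, and its part in these differences was not tested.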

How the data were processed

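Per the labels' protocols, total RNA of mouse kidney was made into 16 libraries with the Lexogen QuantSeq kit. This kit reads the 3′ end of transcripts, so a count does not scale with gene length. The authors deposited counts per gene symbol, which were assumed to be raw. Bowtie2, bedtools and the genome build mm10 are named in the submitters' processing notes, without versions, and no source used here states the strand setting. Molecular identifiers are not mentioned, so counting error is a lower limit. The members and gene lists were chosen with earlier results of these data known, so the counts per list are descriptions and no list was tested. Members named with a value in every library were those past the threshold in a comparison and Ppara, Cpt1a, Pdk4, Ppargc1a, Acadm and Hadha; Angptl4, Acot1 and others were added after their values were seen.

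From the counts, CPM with TMM scaling and all tests were computed in edgeR 4.0.16 (R 4.3.3; quasi-likelihood, robust, filterByExpr with a minimum count of 10, all 16 libraries in 1 fit, two-sided, Benjamini-Hochberg over 14665 genes, 26214 symbols removed). Scripts were checked on simulated counts. Alternatives, 29 in all, used other scalings, DESeq2 1.42.0, limma-voom 3.58.1, other filters, fewer libraries, the replicate number, the clock score and, added after seeing the data, the GC slope of each library. Gene positions are from GENCODE M21 (GRCm38), promoter sequences from RefSeq (GRCm38.p6). Within each group no libraries were duplicates, as the smallest mean chi-square per gene between 2 libraries of a group was 7.72. Same-numbered replicates did not deviate together (correlations of -0.09 to 0.16), so the numbers were not used as pairs. A result that needs a withheld item is not reported here.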

Additional observations from a re-analysis of the deposited data

Results flagged for a closer look

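In 66 groups of 5 libraries (each member in Young and in Old) 6 values stood apart from the other libraries of their group by Dixon's criterion, where chance gives about 1 in 20, or 3.3. Acadm in Young 5 was at 811 CPM, against 474 to 551 in the other Young libraries, and the Old against Young call of Acadm was lost without it. Decr2, a peroxisomal reductase, was at 76.0 CPM in Young 5 and 27.9 to 39.1 in the others. Acox2 in Young 1 was at 102 CPM (others 81.4 to 87.1), and Fabp1 in Young 3 at 4.55 CPM (others 0.754 to 1.42). Eci1 in Old 4 was at 58.2 CPM (others 78.1 to 85.4), and Acot1 in Old 5 at 75.3 CPM (others 42.6 to 51.9).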

How the results depend on the processing

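The 5 members that passed in Old against Young were 5 with the replicate number as a block, which does not pair these samples (it added Angptl4 and dropped Acadm), and 7 without Old 4, Old + YM 3 and Old + PM 3 together (beside 14.4% and 19.3% of all genes). They were 8 with DESeq2's Wald test (16.9% of all genes), 2 with the clock score (2.26%), 11 with the GC slope (18.8%) and 13 with the replicate block and GC slope together (20.4%). When 1 library was left out they were 3 to 6, beside 8.29% (without Old 5) to 18.2% (without Old 4) of all genes. Acads and Ppara passed in 12 of 13 alternatives and in all 16 fits without a library, Ehhadh in 12 and 15, Cpt1a in 11 and 9, and Acadm in 6 and 4. For Old + YM against Old the count was 1 with DESeq2's Wald test (Ehhadh, beside 0.334% of all genes). It was 0 to 1 when 1 library was left out (0% to 0.265%). For Old + PM against Old + YM it was 1 with DESeq2's Wald test (0.409%) and 1 with no filter (0.0325%), Ehhadh each. When 1 library was left out it was 0 to 1 (0% to 0.217%). The log2 value turned sign with the clock score for Cpt1a (-0.11), Ppargc1a (-0.10) and Angptl4 (-0.26) in Old against Young. In Old + PM against Old + YM it turned for Hsd17b4 with the GC slope (0.10) and with the block and slope together (0.0787), and for Slc25a20 with the latter (0.0076). The causes were not tested. Over all genes, 1995 passed in Old against Young, 332 with the clock score, 2998 with the block and GC slope 1235 without Young 4 and 1208 without Old 5; with upper-quartile scaling 59.3% of the changed genes were higher, beside 47.6%. The 3 genes of Old + YM against Old were 0 to 39 without 1 library and 1 to 49 under the other settings, 49 with DESeq2. No gene in Old + PM against Old passed in edgeR with all libraries (904 at an unadjusted p under 0.05), and Old + PM against Old + YM had 0 in edgeR (1878 unadjusted, 561 with the GC slope, 896 without Old + PM 3 and 1187 without Old + YM 2), 60 in DESeq2 and 0 to 32 without 1 library. Pdk4 and Fabp1 rest on few counts, which limits what could be detected.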
